A study of Mus musculus with 7 samples.

Results

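Klf1, Nfe2, Epor, Gypc, Alas2, Itga2b, Pf4, Vwf and Samd14 are 9 genes of the red cell and platelet lineages, and the occupancy of GATA2 around them was compared with that of 9aa-Ins, a variant whose zinc fingers are set apart by an insertion of amino acids. The genes were given by name, and every peak with its summit inside the gene or within 100 kb of the gene start was linked to it. This gave 27 of 6254 GATA2 peaks and 7 of 1079 9aa-Ins peaks. The assay was CUT&Tag, which uses an antibody to bring a transposase to the protein and so marks the DNA beside it for sequencing. All libraries came from hi-77-/- cells, mouse fetal liver progenitors immortalized with an estrogen-regulated HoxB8, which lack the upstream Gata2 enhancer that gives the line its name and are depleted of GATA2. They were infected with a retrovirus carrying either GATA2 or 9aa-Ins, each with an HA tag, grown in medium with β-estradiol and sorted for GFP+ cells, so that both groups shared the enhancer deletion, HoxB8 and a transgene driven by the virus. Each peak list merged 2 anti-HA libraries, made by splitting 1 pool of cells, and 3 of the 7 libraries, which used an antibody to GATA2 itself, were not used here. No value below therefore has a replicate error, and no list from cells without an HA-tagged protein was used. The lists hold no RNA, so the cell type could not be checked against its markers.

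GATA factors bind the DNA motif WGATAR, which is GATA with A or T before it and A or G after it, on either strand. GATA2 acts in hematopoietic stem and progenitor cells, and GATA1 takes over many of its sites as erythroid cells and megakaryocytes mature. Klf1 encodes an erythroid zinc finger transcription factor, Nfe2 a leucine zipper factor needed for platelet release, and Epor the erythropoietin receptor. Gypc encodes glycophorin C of the red cell membrane, and Alas2 the erythroid enzyme that starts heme synthesis. Itga2b encodes the αIIb integrin chain of the fibrinogen receptor, Pf4 a chemokine stored in platelet granules, and Vwf the adhesive protein von Willebrand factor. Samd14 encodes a protein that promotes signaling by the Kit receptor in progenitors.

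The stretches of 4 loci with a WGATAR match are shown because they hold the summit of a GATA2 peak and the match nearest to it. Sequences are on mm10 (GRCm38), 5′ to 3′ on the strand of the named gene, with each WGATAR match in capitals. A match on the other strand reads as TATC with C or T before it and A or T after it. The Nfe2 stretch (chr15:103258404-103258572, minus strand) lies just upstream of the gene, and the Itga2b stretch (chr11:102470035-102470230, minus strand) spans its start. The Samd14 stretch (chr11:95012130-95012370, plus strand) is in an intron of Samd14. Both Vwf stretches (chr6:125473511-125473669 and chr6:125481759-125481909, plus strand) lie upstream of Vwf in introns of Cd9, a gene for a platelet tetraspanin.
Nfe2 promoter peak: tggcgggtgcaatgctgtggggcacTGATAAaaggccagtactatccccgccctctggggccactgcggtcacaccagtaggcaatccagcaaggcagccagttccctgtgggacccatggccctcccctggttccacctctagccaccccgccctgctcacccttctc
Itga2b promoter peak: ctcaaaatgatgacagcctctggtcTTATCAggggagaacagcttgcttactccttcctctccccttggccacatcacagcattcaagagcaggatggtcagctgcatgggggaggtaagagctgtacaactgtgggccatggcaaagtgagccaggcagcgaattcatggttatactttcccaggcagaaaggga
Samd14 intron peak: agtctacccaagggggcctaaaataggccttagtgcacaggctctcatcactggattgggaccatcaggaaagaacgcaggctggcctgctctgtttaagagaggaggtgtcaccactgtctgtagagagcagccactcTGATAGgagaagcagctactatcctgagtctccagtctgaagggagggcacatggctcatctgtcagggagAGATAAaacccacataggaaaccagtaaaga
Vwf upstream peak, far: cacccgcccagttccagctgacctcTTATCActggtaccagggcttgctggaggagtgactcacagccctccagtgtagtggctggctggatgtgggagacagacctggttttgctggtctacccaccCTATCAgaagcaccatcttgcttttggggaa
Vwf upstream peak, near: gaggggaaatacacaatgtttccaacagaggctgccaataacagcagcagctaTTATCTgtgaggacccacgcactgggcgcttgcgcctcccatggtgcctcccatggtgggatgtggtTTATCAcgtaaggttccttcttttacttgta

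A peak without WGATAR and a promoter with WGATAR but without a peak are shown for contrast. The Klf1 peak (chr8:84903167-84903287, plus strand) lies in a coding exon of Klf1. The other stretch is from the RefSeq promoter of Alas2 (chrX:150547267-150547374, plus strand), up to the GENCODE start of the gene.
Klf1 exon peak: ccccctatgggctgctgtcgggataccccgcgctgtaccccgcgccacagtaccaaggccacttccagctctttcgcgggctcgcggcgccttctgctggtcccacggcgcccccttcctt
Alas2 promoter: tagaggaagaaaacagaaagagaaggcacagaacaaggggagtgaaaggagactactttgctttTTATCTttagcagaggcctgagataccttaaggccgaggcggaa

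The GATA2 list held a peak for 7 of the 9 genes, and the 9aa-Ins list for 3. Klf1, Nfe2 and Epor had peaks of both, Gypc, Itga2b, Samd14 and Vwf of GATA2 only, and Pf4 and Alas2 of neither. The same reach found a GATA2 peak for 52.5% of protein-coding genes and a 9aa-Ins peak for 18.6%. With 7 of 9, or 77.8% (95% Wilson interval 45.3 to 93.7%), and 3 of 9, or 33.3% (12.1 to 64.6%), both shares had intervals that held the share of all genes. All intervals here cover counting error alone, because the replicates of a construct were merged in its list and their spread is unknown. A reach of 100 kb takes in neighbouring genes, so each GATA2 peak was also given to the protein-coding gene with the nearest start. By this rule 12 of the 27 peaks belonged to 6 of the 9 genes (66.7%, 35.4 to 87.9%) against 20.9% of all genes, and 15 belonged to a neighbour. Epor, Gypc, Itga2b, Klf1, Nfe2 and Samd14 were these 6 genes. In the 9aa-Ins list Nfe2 alone of the 9 was nearest to a peak, a share of 11.1% (1.99 to 43.5%) against 4.35% of all genes.

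**Figure D1:**
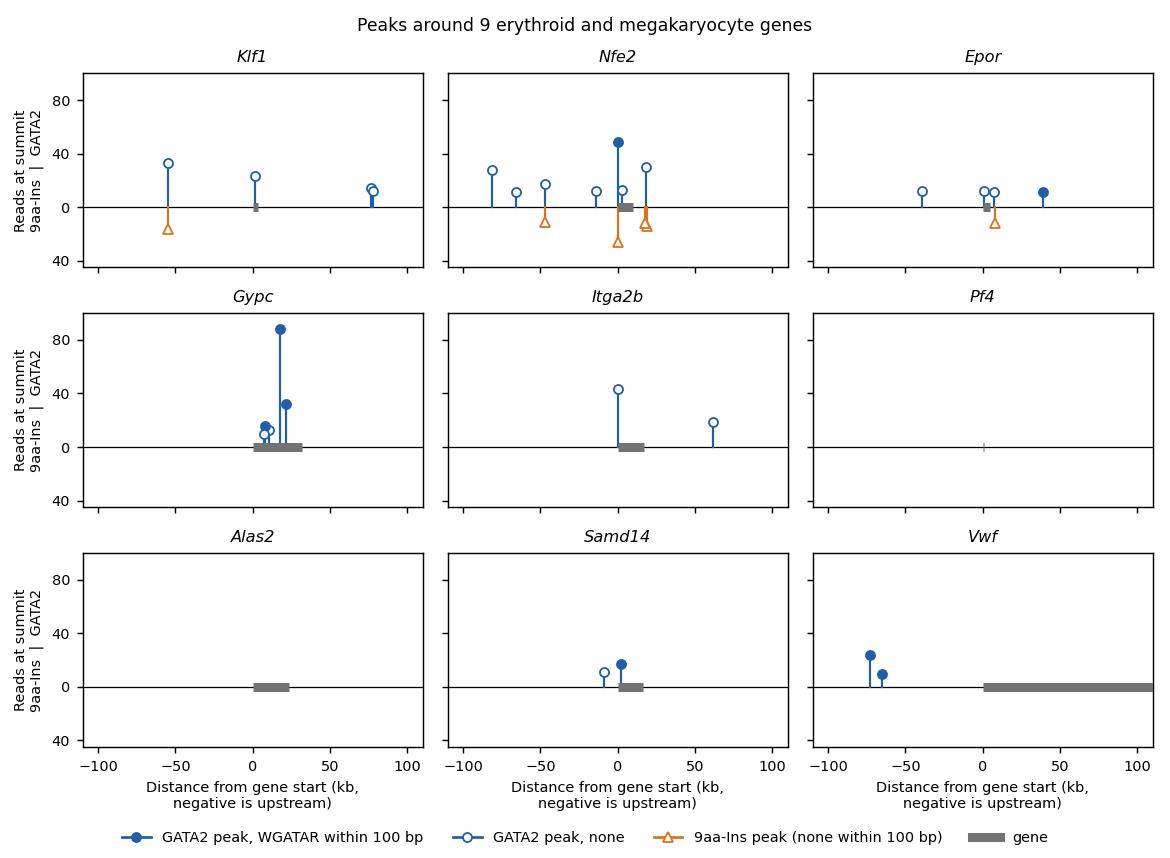
Peaks around the start of each gene, 26 of the 27 GATA2 peaks and 6 of the 7 9aa-Ins peaks. Horizontal axes give the distance of the summit from the gene start in kb (negative is upstream) and vertical axes the reads at the summit, upward for GATA2 (circles, filled with WGATAR within 100 bp of the summit) and downward for 9aa-Ins (triangles). Grey bars are the genes, that of Vwf running past the right edge. Gypc has its 5 GATA2 peaks inside the gene, Nfe2 has peaks of both proteins at its start, and the panels of Pf4 and Alas2 are empty.

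The height of a peak was the pileup, the number of reads over its summit, recovered as a whole number from the deposited fold enrichment. It was 15 reads at the median GATA2 peak of the whole list and 13 reads at the median 9aa-Ins peak, and the lowest pileup in either list was 9 reads. The 27 linked GATA2 peaks ran from 10 to 88 reads, with a median of 14. Those nearest to one of the 9 genes had a median of 16.5 reads, and those nearest to a neighbour 12 reads.

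Klf1 (ENSMUSG00000054191.8, chr8:84901928-84905291, plus strand) had 1 GATA2 peak of its own, in a coding exon 1.30 kb downstream of the start. It had 23 reads (exact 95% Poisson interval 14.6 to 34.5), and no 9aa-Ins peak overlapped it. The window within 100 bp of its summit held no WGATAR and had 68.7% GC. The other 4 GATA2 peaks within reach of Klf1 lay beside other genes, in a stretch with 15 other protein-coding starts. One lay 55.0 kb upstream at Calr, which encodes a calcium-binding chaperone of the endoplasmic reticulum, and overlapped a 9aa-Ins peak. There GATA2 had 33 reads (22.7 to 46.3) and 9aa-Ins 16 reads (9.15 to 26.0). A pair at 76.8 and 77.9 kb downstream, with 14 and 12 reads, was nearest to Junb, which encodes a subunit of the AP-1 transcription factor, and had no 9aa-Ins peak.

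Nfe2 (ENSMUSG00000058794.12, chr15:103248212-103258403, minus strand) had 7 GATA2 peaks and 4 9aa-Ins peaks, more of each than the other 8 genes. The peak at its promoter (chr15:103258081-103258751), with its summit 56 bp upstream of the start, had 49 reads (36.3 to 64.8) for GATA2 and ranked 73 in the list. The 9aa-Ins summit lay 13 bp away with 26 reads (17.0 to 38.1), and ranked 75 in its own, shorter list. This was the single site where a 9aa-Ins peak was nearest to one of the 9 genes. The TGATAA in the Nfe2 promoter sequence lay 83 to 88 bp from the GATA2 summit, and 2 further matches lay 245 and 314 bp from the summit on the side of the gene. The other GATA2 peak of Nfe2 itself, 3.05 kb into the gene, had 13 reads (6.92 to 22.2), lay 90 bp from the start of another Nfe2 transcript and overlapped no 9aa-Ins peak.

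Of the 5 further GATA2 peaks around Nfe2, 2 overlapped 9aa-Ins peaks. One covered the facing starts of Cbx5 and Hnrnpa1, which encode a heterochromatin protein and an RNA-binding protein, with 30 reads (20.2 to 42.8). Over it the 9aa-Ins list held 2 separate peaks of 14 and 12 reads. The other, 47.0 kb upstream of Nfe2 and nearest to Gpr84, had 17 reads (9.90 to 27.2) for GATA2 and 11 reads (5.49 to 19.7) for 9aa-Ins, with the summits 108 bp apart. The rest had no 9aa-Ins peak, with 12 reads at Copz1, 11 reads in an intron of Zfp385a and 28 reads (18.6 to 40.5) near the start of Zfp385a. That last peak, 81.3 kb upstream of Nfe2, was the one nearest to the limit of 100 kb among all linked peaks, and the nearest one outside was a GATA2 peak of 11 reads 107 kb upstream of Epor.

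Epor (ENSMUSG00000006235.6, chr9:21958897-21963506, minus strand) had 4 GATA2 peaks, all low, at 11, 11, 12 and 12 reads. The peak of its own lay in an intron, 0.773 kb downstream of the start of the gene record and 169 bp upstream of another transcript start. It had 12 reads (6.20 to 21.0), no WGATAR within 100 bp and no overlapping 9aa-Ins peak. The 9aa-Ins list held 1 peak here, of 12 reads (6.20 to 21.0), in a coding exon of the adjoining gene Swsap1, where the GATA2 peak had 11 reads (5.49 to 19.7). The 2 values, at summits 144 bp apart, did not differ beyond their counting error. A GATA2 peak of 11 reads in an intron of Tmem205, 39.2 kb downstream of the Epor start, was the one of the 4 with WGATAR within 100 bp, an AGATAA.

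Gypc (ENSMUSG00000090523.2, chr18:32528322-32560034, minus strand) differed from the other 8 genes in that all its peaks lay inside it. Its 5 GATA2 summits were in introns, from 7.16 to 21.6 kb downstream of the start, and 29 of 21938 protein-coding genes (0.132%) had at least as many GATA2 summits inside them. The tallest, 17.5 kb downstream of the start (chr18:32542030-32543030), had 88 reads (70.6 to 108) and ranked 8 of the 6254 GATA2 peaks. Its interval lay wholly above those of the other 26 linked peaks. It held 6 WGATAR matches, the nearest 19 bp from the summit and the next 71 bp from it, both TGATAA. The second tallest, 21.6 kb downstream, had 32 reads (21.9 to 45.2) and a TGATAA 86 bp from its summit. The others had 16, 13 and 10 reads, the one of 16 reads with a TGATAA and an AGATAA within 100 bp. No 9aa-Ins peak was listed within 100 kb of Gypc, and the nearest was 2300 kb from its start. An alternative Gypc transcript started 3.04 kb downstream of the second peak, and 7.11 kb downstream of the tallest.

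Alas2 (ENSMUSG00000025270.13, chrX:150547375-150570638, plus strand) had no peak within reach. Its nearest GATA2 peak, of 13 reads, lay 470 kb away at Gnl3l, and its nearest 9aa-Ins peak 1470 kb away. The RefSeq promoter of Alas2 nonetheless held a match, the TTATCT in the sequence above, which begins 86 bp upstream of the RefSeq start. RefSeq windows from 250 bp before to 50 bp after the start were found for 5 of the 9 genes (Alas2, Epor, Itga2b, Klf1 and Pf4), and 4 of the 5 held WGATAR against 29.8% of 32851 such windows. That of Klf1 held a TGATAA, those of Epor and Pf4 an AGATAA each, and that of Itga2b no match. A GATA2 peak overlapped the window of Itga2b and none of the 4 with a match. The share of all such windows that a GATA2 peak overlaps is not given here, so these counts cannot be set against it. A match of letters is not a bound site, and a missing peak says only that none was called in the window.

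Itga2b (ENSMUSG00000034664.13, chr11:102453297-102470122, minus strand) had a promoter peak (chr11:102469755-102470553) with its summit 27 bp inside the gene record and 212 bp upstream of the nearest start among its protein-coding transcripts. It had 43 reads (31.1 to 57.9) and ranked 111 in the GATA2 list, the third tallest of the 27. It held 3 WGATAR matches, all of them over 100 bp from the summit, and the nearest, shown in its sequence, lay 105 to 110 bp away. A second GATA2 peak of 19 reads (11.4 to 29.7) lay 61.6 kb downstream at the start of Slc25a39, a mitochondrial carrier. No 9aa-Ins peak was within reach of Itga2b, and the nearest was 153 kb away at Ubtf.

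Pf4 (ENSMUSG00000029373.7, chr5:90772435-90773383, plus strand) was like Alas2 in having no peak of either protein. The nearest GATA2 peak, of 16 reads, was 406 kb away at Ankrd17, and the nearest 9aa-Ins peak 549 kb away.

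Vwf (ENSMUSG00000001930.17, chr6:125546774-125686679, plus strand) had no peak inside the gene, which spans 140 kb. Its 2 GATA2 peaks lay upstream, at 73.2 kb with 24 reads (15.4 to 35.7) and at 65.0 kb with 10 reads (4.80 to 18.4). Both summits were in introns of Cd9, whose start was nearer, and each had 2 WGATAR matches within 100 bp, on either side of the summit. The AGATAA of the nearer peak, printed as TTATCT, began 7 bp from the summit, closer than any other match in the linked peaks. The nearest 9aa-Ins peak was 355 kb from the start of Vwf.

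Samd14 (ENSMUSG00000047181.12, chr11:95009879-95026087, plus strand) had 2 GATA2 peaks and no 9aa-Ins peak, the nearest being 300.3 kb away. The peak in its intron (chr11:95012073-95012453), 2.31 kb downstream of the start, had 17 reads (9.90 to 27.2). In its sequence the TGATAG began 79 bp and the AGATAA 150 bp from the summit. That AGATAA was part of an E-box-WGATAR composite, a CANNTG followed after 6 to 14 bases by WGATAR, which progenitor GATA2 sites can share with basic helix-loop-helix factors. The composite ran over chr11:95012326-95012345 (plus strand), beginning 136 bp from the summit with CATCTG and a spacer of 8 bases.
Samd14 composite: CATCTGTCAGGGAGAGATAA
A second linked peak, at Calr within reach of Klf1, also held a composite, so 2 of the 27 did (7.41%, 2.06 to 23.4%), against 5.2% of all GATA2 peaks. Neither composite lay within 100 bp of its summit. The other peak of Samd14, 9.06 kb upstream in an intron of Ppp1r9b, had 11 reads (5.49 to 19.7) and no WGATAR.

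Of the 27 GATA2 peaks, 8 held a whole WGATAR match no farther than 100 bp from the summit, or 29.6% (15.9 to 48.5%), against 30.3% of all GATA2 peaks. So did 5 of the 12 peaks nearest to one of the 9 genes (41.7%, 19.3 to 68.0%) and 3 of the 15 nearest to a neighbour (20.0%, 7.05 to 45.2%), and these intervals overlap. The 8 peaks held 12 matches, of which 7 were TGATAA, 3 AGATAA, 2 TGATAG and 0 AGATAG. Over all GATA2 peaks TGATAA made up 22.6% of 2649 matches and AGATAA 40.8%. Of the 7 TGATAA, 4 came from Gypc, so that matches of 1 gene weigh heavily in this count. The middle of the nearest match was a median of 70.5 bp from the summit in the 8 peaks, and 39 bp in the 1893 of the whole list that had one. Promoters, from 2 kb upstream to 100 bp downstream of a transcript start, held 12 of the 27 summits (44.4%, 27.6 to 62.7%) against 50.4% of all. GGAA, the core of the ETS motif, was within 100 bp of 26 of the 27 summits and of 88.2% of all, and CCNCNCCC, a KLF type motif, of 14 of 27 and of 47.8% of all. All motifs were searched on both strands. The 7 linked 9aa-Ins peaks held no WGATAR within 100 bp of the summit (0%, 0 to 35.4%), where 12.1% of all 9aa-Ins peaks did. The TGATAA of the Nfe2 promoter, counted for GATA2, came within 96 bp of the 9aa-Ins summit but ran past the edge of this window, so it was not counted. Anywhere in the peak, 1 of the 7 held a match, that at the Nfe2 promoter (14.3%, 2.57 to 51.3%), against 21.4% of all 9aa-Ins peaks.

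**Figure D2:**
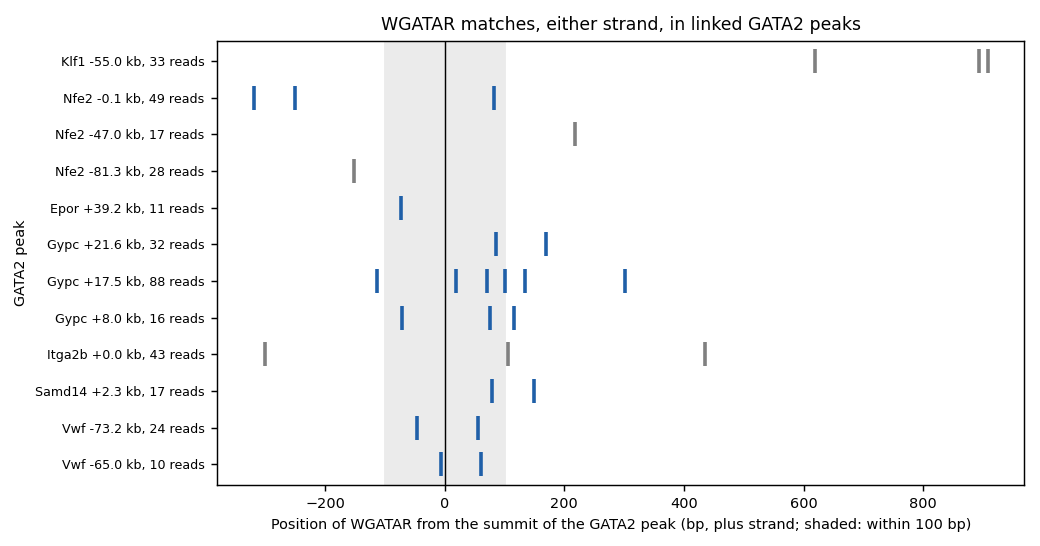
Positions of WGATAR in the linked GATA2 peaks that hold a match. Each line is a peak, named by the gene and the distance of its summit from the gene start, the horizontal axis gives the first base of the match from the summit in bp on the plus strand, and the band marks 100 bp to each side. Blue marks belong to the 8 peaks with a match in the band and grey marks to the 4 with matches farther out. The tallest Gypc peak carries 6 matches, and the Itga2b match nearest its summit sits just outside the band.

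Of the 27 GATA2 peaks, 6 overlapped a 9aa-Ins peak by at least 1 bp, or 22.2% (10.6 to 40.8%), against 15.3% of all GATA2 peaks. Only 1 of the 12 peaks nearest to one of the 9 genes did so (8.33%, 1.49 to 35.4%), the Nfe2 promoter, and 5 of the 15 nearest to a neighbour (33.3%, 15.2 to 58.3%). These intervals overlap, and no difference between the classes was tested. In the other direction all 7 linked 9aa-Ins peaks overlapped a GATA2 peak, against 88% of the whole 9aa-Ins list. Shared peaks had a median of 23.5 GATA2 reads and the 21 found with GATA2 alone a median of 13.

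At 5 of the 6 shared sites the 9aa-Ins pileup was compared with the GATA2 pileup, which compares 2 merged lists and not replicated conditions. The background that stands for depth was alike in both, with 0.464 reads in the GATA2 list and 0.455 in the other. The ratio of 9aa-Ins to GATA2 was 0.531 at the Nfe2 promoter (95% interval 0.317 to 0.871), 0.485 at Calr (0.249 to 0.906) and 0.467 at Cbx5 (0.229 to 0.908). These 3 intervals lay below 1. It was 0.647 at Gpr84 (0.274 to 1.46) and 1.09 at Swsap1 (0.441 to 2.73), where the intervals held 1. The summits lay 108 bp apart at Gpr84 and 144 bp apart at Swsap1, so there the pileups belong to different positions. A site counts as shared only with at least 9 reads in each list, so a low ratio could appear only where GATA2 had many reads.

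For the 21 peaks found with GATA2 alone, the reads at the same place in the 9aa-Ins libraries are not given by the list, but a 9aa-Ins peak could be called from 9 reads. In 9 of the 21 the Poisson interval of the GATA2 pileup lay above 9 reads, among them the Klf1 exon, Itga2b promoter and Samd14 intron peaks, the far Vwf peak and 3 of the 5 Gypc peaks. In the other 12, the own peak of Epor among them, the interval reached 9 reads or fewer. This split leaves out the counting error of the unseen 9aa-Ins reads, so it does not show a difference between the proteins at any of the 21. The same split over all peaks found with GATA2 alone is not given here, so 9 of 21 cannot be set against it.

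**Figure D3:**
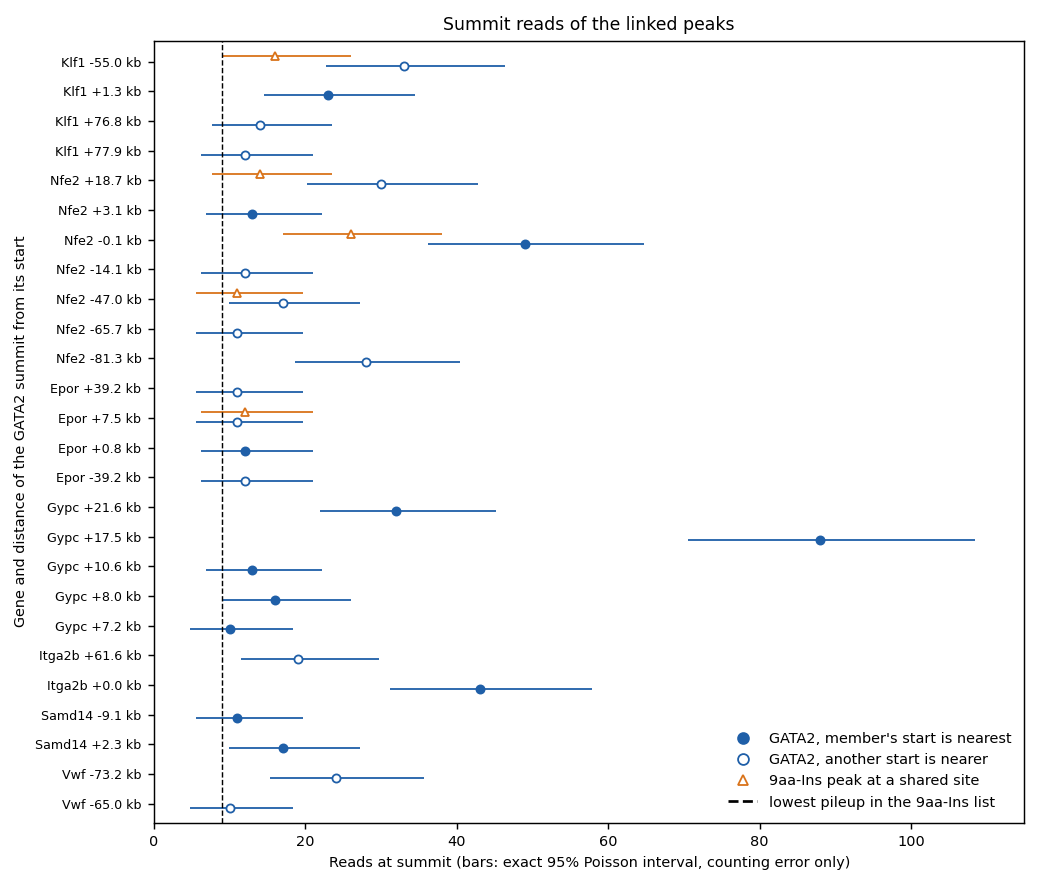
Reads at the summit of 26 of the 27 linked GATA2 peaks (blue circles, filled where the named gene has the nearest start) and of the 9aa-Ins peak at 5 of the 6 shared sites (orange triangles). Bars are exact 95% Poisson intervals for counting error, and the dashed line is at 9 reads, the fewest of any 9aa-Ins peak. The Gypc peak of 88 reads stands apart from the rest, and most low peaks have bars that cross the line.

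To set the 9 genes among others of their lineages, 93 erythroid and megakaryocyte genes in 7 lists were linked in the same way. Of these, 61 (65.6%, 55.5 to 74.5%) had a GATA2 peak and 20 (21.5%, 14.4 to 30.9%) a 9aa-Ins peak within reach, against the 52.5% and 18.6% of all genes. A GATA2 peak was nearest to the start of 36 (38.7%, 29.4 to 48.9%), against 20.9%. A 9aa-Ins peak was nearest to 3, Nfe2l1, Tgfb1 and Cxcr4 (3.23%, 1.10 to 9.06%), against 4.35%. The genes of a list can share peaks, so they are not independent, and the lists were described without a test.

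All 7 globin genes had a linked GATA2 peak and none a 9aa-Ins peak, but they lie in 2 clusters and share their peaks, and a GATA2 peak was nearest to the start of only 2 of them (28.6%, 8.22 to 64.1%). The α-like genes Hba-a1, Hba-a2 and Hba-x shared their tallest one, of 16 reads, which lay 76.0 to 96.1 kb upstream of them beside another gene. The β-like genes Hbb-bs, Hbb-bt, Hbb-bh1 and Hbb-y shared their tallest one, of 20 reads, 7.94 kb upstream of Hbb-y (chr7:103861030-103861210). Among the 14 genes of heme synthesis and iron, to which Alas2 would belong, 10 had a GATA2 peak and 2, Alad among them, a 9aa-Ins peak. At Ppox, which encodes protoporphyrinogen oxidase of heme synthesis, GATA2 had 22 reads 0.124 kb downstream of the start, with WGATAR within 100 bp, and no 9aa-Ins peak was linked. Tfrc of the same list had a taller peak of 26 reads 0.11 kb downstream of its start, without WGATAR within 100 bp. Of 17 genes of the red cell membrane and surface, the class of Gypc, 9 had a GATA2 peak. Epb41, for a protein of the membrane skeleton, had 25 reads at its promoter, 0.127 kb upstream of its start. Slc4a1, Rhd and Ermap were the 3 with a 9aa-Ins peak. The tallest peak of Slc4a1, the anion exchanger band 3, was the one at Slc25a39 that was also linked to Itga2b.

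Of the 15 platelet receptor and adhesion genes, the class of Itga2b and Vwf, 9 had a GATA2 peak and 3 a 9aa-Ins peak, Gp9, Tbxa2r and Treml1. Cd9 was among the 9, since both peaks upstream of Vwf lie in it. The granule and cytoskeleton genes, the class of Pf4, had a GATA2 peak in 8 of 14 and a 9aa-Ins peak in 4, Srgn, Nbeal2, Rasgrp2 and Fermt3. Among 14 other erythroid genes 10 had a GATA2 peak, the tallest of 38 reads in Tmcc2, and 4 a 9aa-Ins peak, Hemgn, Cldn13, Mafg and Nfe2l1. Nfe2l1, a relative of Nfe2, had like it a shared peak at its promoter, with 29 GATA2 reads 0.182 kb upstream of the start. Unlike the Nfe2 promoter peak, that of Nfe2l1 had no WGATAR within 100 bp of the GATA2 summit. Of 12 genes for receptors, ligands and signaling proteins downstream of them, the class of Epor, 8 had a GATA2 peak and Epo, Tgfb1, Cxcr4 and Cish also a 9aa-Ins peak.

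**Figure D4:**
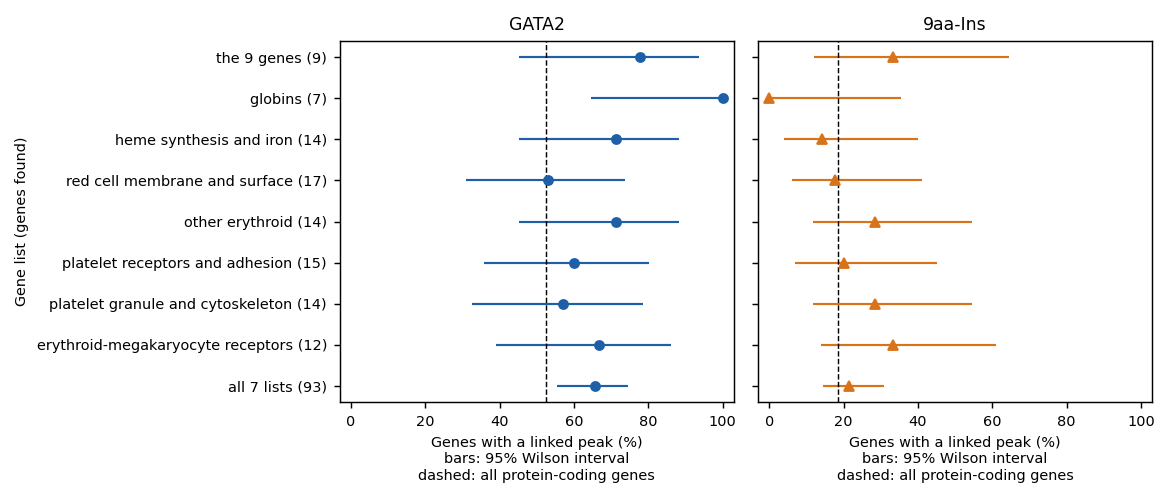
Share of genes with a linked GATA2 peak (left) and 9aa-Ins peak (right) in percent for the 9 genes, each of the 7 lists and all lists together, with the number of genes found in brackets. Bars are 95% Wilson intervals and dashed lines the shares of all protein-coding genes, 52.5% and 18.6%. The globin list lies at 100% for GATA2 and at 0% for 9aa-Ins.

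The pattern of Nfe2, with the highest summed fold enrichment of the 9 (114), was compared with that of all protein-coding genes by the numbers of linked GATA2 peaks, 9aa-Ins peaks and GATA2 peaks with WGATAR. Just 4 genes had the same 3 numbers, Cbx5, Copz1, Gpr84 and Hnrnpa1. They start 14.3 to 52.2 kb from Nfe2 and had the same summed fold enrichment, because the same peaks are linked to all 5.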

How the data were processed

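CUT&Tag peaks of HA-tagged GATA2 and 9aa-Ins in hi-77-/- cells were analysed. The authors used Bowtie2 for alignment to mm10, left out blacklisted regions and duplicate reads, and ran MACS3 to find peaks at a q-value of 1e-06, in versions not given in the sources used here. The labels describe each list as 2 merged anti-HA replicates, while the supplementary methods have the replicates called apart and joined with HOMER. A single background in each list is what 1 call on merged reads would give. The deposited fold enrichment is the ratio of summit pileup plus 1 to background plus 1, and the authors' caller also gave a −log10 p-value, a −log10 q-value and a summit offset. No column of other samples was used (0).

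Whole pileups were recovered from 100% of the fold enrichments (tolerance 0.01 reads), and Poisson p-values from them matched the deposited −log10 p-values within 5.19e-04. The background stood for depth, as no read totals were used here. One background for the genome, and not a local estimate, lies under each fold enrichment. Genes were GENCODE M21 protein-coding genes outside the mitochondrial genome (21938), and promoter windows came from RefSeq (GRCm38.p6). Pileups have exact Poisson 95% intervals, shares Wilson intervals and ratios exact intervals from the binomial distribution. There were no tests, since the lists hold no replicates. Python 3.11.15, NumPy 2.4.6, pandas 2.3.3, SciPy 1.17.1 and matplotlib 3.10.9 were used, and the functions were tested on simulated data.

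The 9 genes and the 7 lists (94 genes, of which Ahsp did not match) were chosen with earlier results of these data known. Named besides the 9 are the genes nearest to their peaks, up to 3 genes with the tallest linked GATA2 peak in each list, genes with a linked 9aa-Ins peak, and genes of like pattern. Not all of them are given with values. Alternatives were other limits of distance, transcript starts, nearest starts, stricter q-values, overlap rules and motif windows. Values of 1 shared site and of 1 gene of the lists are not reported here, though both are in the counts.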

Additional observations from a re-analysis of the deposited data

How the results depend on the processing

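Of 55 alternative values, 39 stayed within 1.5 times the value reported and 16 moved further. The number of genes with a GATA2 peak stayed within it under every alternative run. With a limit of 50 kb, 7 linked GATA2 peaks were at promoters. With a limit of 10 kb, 13 GATA2 and 2 9aa-Ins peaks were linked, 2 GATA2 peaks were shared, 5 had WGATAR and 4 were at promoters. With peaks given to the nearest start only, 12 GATA2 peaks and 1 9aa-Ins peak were linked, 1 gene had a 9aa-Ins peak, 1 GATA2 peak was shared, 5 had WGATAR and 4 were at promoters. The number of shared peaks was 3 at a q-value of 1e-10 and 3 with a reciprocal overlap of 50%. A match within 50 bp of the summit was found in 3 peaks for WGATAR, and a composite anywhere in 2 peaks, where none lay within 100 bp. The cause was not tested, beyond that shorter limits and nearest starts take in fewer peaks.

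No paired analysis was possible because the replicates of a construct are merged in its list, and leaving out a replicate was not run for the same reason. The lists give no reads where no peak was called, and a site with fewer than 9 reads could not appear in either.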
